A study of Mus musculus with 14 samples.

Results

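The mouse Serpina3 genes are a tandem cluster of serine protease inhibitor (serpin) genes on chromosome 12. They were followed by RNA sequencing in the cerebral cortex of both hemispheres after cerebral venous sinus thrombosis (CVST), a stroke caused by clotting in the veins that drain the brain. The members are the 7 genes of the count table with the symbols Serpina3n, Serpina3c, Serpina3f, Serpina3g, Serpina3h, Serpina3i and Serpina3m, out of 55359 Ensembl genes. The members were named with an earlier reading of these same libraries in view, in which Serpina3n was higher after CVST than in sham cortex, so the members' differences from sham are given as a description, with no p-value. The 14 libraries were 5 from cortex at 7 d after CVST (CVST-7d), 5 at 2 d (CVST-2d) and 4 from sham mice, all Mus musculus with no engineered allele named. The sources used here name no strain, sex or age, and neither the way the thrombosis was induced nor the time at which sham cortex was taken. Nothing in the labels says that each library is a separate animal, so p-values measure the spread between libraries.

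Serpins are suicide inhibitors: a protease that cleaves the exposed loop of a serpin is trapped in a covalent complex with it. In mice, repeated duplication has expanded the locus of the human acute-phase inhibitor SERPINA3 (alpha-1-antichymotrypsin) into this array, and much of the difference between copies lies in the loop that meets the protease. Serpina3n is secreted, inhibits serine proteases including granzyme B, neutrophil elastase and cathepsin G, and is widely used as a marker of reactive astrocytes; oligodendrocytes in diseased tissue also make it. Serpina3g, also called Spi2A, stays inside the cell, where it inhibits lysosomal cysteine cathepsins, and it is known from activated lymphocytes and myeloid cells.

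RefSeq orders the cluster as Serpina3a, b, c, d-ps, e-ps, f, g, h, i, j, k, l-ps, m and n, with Serpina3n at one end, and annotates Serpina3h as a transcribed pseudogene. Promoter windows of 250 bases before and 50 after a start site were at hand for 5 of the 7 members, from RefSeq on GRCm38.p6 (the deposited counts were made on mm39, so these positions are not those of the counts). The windows of Serpina3n and Serpina3c are shown because they are the closest pair, identical at 275 of 294 aligned bases (93.5%), although their read counts lay far apart. Those of Serpina3g and Serpina3i are shown because they hold a match to the STAT motif TTCNNNGAA, printed in capitals.
Serpina3n (chr12:104406458-104406757, plus strand): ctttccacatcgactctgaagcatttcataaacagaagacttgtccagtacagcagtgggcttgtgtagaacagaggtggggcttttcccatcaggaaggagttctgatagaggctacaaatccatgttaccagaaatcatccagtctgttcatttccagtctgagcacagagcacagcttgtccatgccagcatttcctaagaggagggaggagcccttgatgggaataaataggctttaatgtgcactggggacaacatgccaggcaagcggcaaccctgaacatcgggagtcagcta
Serpina3c (chr12:104153823-104154122, minus strand): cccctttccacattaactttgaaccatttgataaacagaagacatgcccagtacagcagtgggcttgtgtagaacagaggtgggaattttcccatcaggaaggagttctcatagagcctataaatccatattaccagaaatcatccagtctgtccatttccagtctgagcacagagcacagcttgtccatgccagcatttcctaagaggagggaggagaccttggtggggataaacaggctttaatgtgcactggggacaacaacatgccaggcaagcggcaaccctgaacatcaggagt
Serpina3g (chr12:104235897-104236196, plus strand): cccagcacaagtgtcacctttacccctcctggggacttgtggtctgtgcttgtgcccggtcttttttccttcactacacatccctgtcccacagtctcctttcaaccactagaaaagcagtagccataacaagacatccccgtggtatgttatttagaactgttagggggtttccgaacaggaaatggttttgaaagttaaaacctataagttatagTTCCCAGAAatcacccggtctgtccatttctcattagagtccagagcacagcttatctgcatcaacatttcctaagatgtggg
Serpina3i (chr12:104262872-104263171, plus strand): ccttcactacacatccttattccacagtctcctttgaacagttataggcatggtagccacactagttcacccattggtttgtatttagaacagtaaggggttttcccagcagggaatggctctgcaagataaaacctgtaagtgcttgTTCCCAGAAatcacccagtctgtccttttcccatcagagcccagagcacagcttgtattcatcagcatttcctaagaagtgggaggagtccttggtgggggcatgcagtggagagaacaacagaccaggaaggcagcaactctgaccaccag
The other windows were less like that of Serpina3n: 76.1% identical for Serpina3i, 71.7% for Serpina3g and 71.5% for the more upstream of the 2 windows of Serpina3f.

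The match TTCCCAGAA began at -33 from the start site of Serpina3g and at -102 from that of Serpina3i, and both windows of Serpina3f held TTCCTAGAA. Searched on both strands, TTCNNNGAA lay in 4 of the 6 member windows, which is 3 distinct sites in 3 of 5 genes because the Serpina3f windows overlap and share their site, and in 8.3% of 32851 mouse promoter windows. Between genes, the windows of Serpina3f, Serpina3g and Serpina3i were 82.1% to 86.3% identical, and the same bases followed the match in each. The matches are thus not independent, and nothing is read from their number beside 8.3%. TTCNNNGAA was not among the letters of the Serpina3n or Serpina3c window. The palindrome TTCCNGGAA, which overlaps the looser STAT form, was in 1.15% of all windows, the C/EBP motif TTGCGCAAT in 0.0487%, 2 forms of the NF-kB motif in 0.155% and 0.0883%, and a full glucocorticoid receptor palindrome in 0.00913%. No member window held any of these 5. A match is a run of letters and not a shown binding site, and binding was not measured.

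Libraries held between 14696104 and 20798651 counts over Ensembl genes. CPM are counts scaled to library size. On the first principal component of log2 CPM (33.1% of the variance) sham 1 lay at -27.3 and the other sham libraries between -48.2 and -47.75. CVST-7d 2 (-26.9) and CVST-2d 5 (-26.7) lay beside sham 1, away from the other sham libraries. The other CVST libraries lay between 1.48 and 49.1, so results are given with and without CVST-7d 2 and CVST-2d 5. Cortex markers fitted the labelled tissue, with summed neuron markers of 4499 to 7181 CPM in every library. Markers of other tissue were uneven. Those of choroid plexus summed to 5.13 to 112 CPM in CVST-7d, 3.65 to 468 CPM in CVST-2d and 6.15 to 838 CPM in sham libraries. Red cell markers summed to 1.01 to 21.4 CPM, 18.1 to 259 CPM and 2.25 to 17.4 CPM in the same order. Their part in the results was not tested. Each of the 7 members had at least 1 read, and 2 of them, Serpina3n and Serpina3g, passed the filter on low counts and were tested among 16918 genes.

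Serpina3n (ENSMUSG00000021091) carried nearly all of the cluster's reads and was higher in every CVST library than in every sham library. It had 81.1, 54.4, 101, 231 and 95.1 CPM in CVST-7d libraries, 189, 345, 196, 310 and 80.9 CPM in CVST-2d libraries, and 17.4, 10.8, 15.7 and 13.4 CPM in sham libraries. At both times the lowest CVST library was one of the 2 that lay beside sham in the principal component, and it still exceeded the highest sham library. These levels rested on 859 to 4136 reads per CVST-7d library, 1398 to 7362 per CVST-2d library and 178 to 314 per sham library.

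Mean Serpina3n was 224 ± 105 CPM in CVST-2d and 14.3 ± 2.88 CPM in sham cortex (SD, n = 5 and 4). The fitted log2 fold change at 2 d was 3.97 ± 0.47 (SE), a 15.6-fold difference, and ranked 55 among 16918 genes. In CVST-7d cortex the mean was 112 ± 68.5 CPM (SD, n = 5) against the same sham libraries, a log2 fold change of 2.97 ± 0.45, or 7.85-fold, which ranked 131. Both comparisons use the same 4 sham libraries and are not independent of each other. All CVST libraries lay above all sham libraries for 5.65% of tested genes at 2 d and 5.79% at 7 d. Because Serpina3n was chosen from this contrast, nothing is read from its place among them.

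Left without CVST-2d 5, the CVST-2d mean of Serpina3n was 260 ± 79.3 CPM (n = 4), and without CVST-7d 2 the CVST-7d mean was 127 ± 69.6 CPM (n = 4). CVST-7d 4 held 42.5% of the group's reads, and without it the CVST-7d mean was 82.8 ± 20.7 CPM. The authors' FPKM values, which are scaled by gene length, gave 63.1 ± 39.8 in CVST-7d, 125 ± 60.3 in CVST-2d and 7.60 ± 1.53 in sham cortex (SD, n = 5, 5 and 4). By mean FPKM Serpina3n ranked 1309 of 27361 genes with a value in CVST-7d, 642 of 27215 in CVST-2d and 8315 of 26425 in sham cortex. In bulk cortex, more cells that make a transcript and more transcript per cell cannot be told apart.

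**Figure D1:**
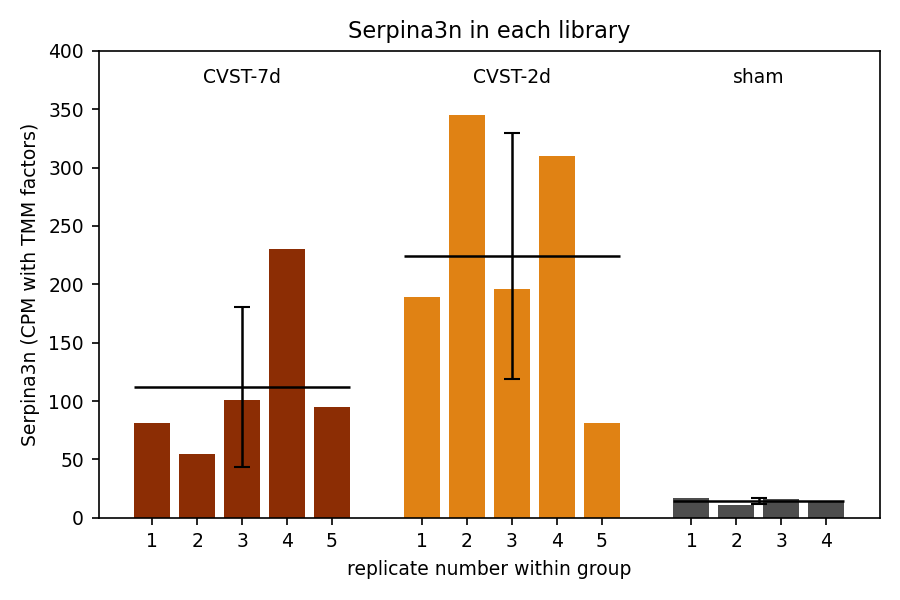
Serpina3n in each library, in CPM with TMM factors, for CVST-7d, CVST-2d and sham libraries by replicate number; horizontal lines are group means and error bars 1 SD. The highest sham library has 17.4 CPM, and the lowest CVST library, CVST-7d 2, has 54.4 CPM.

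The mean of Serpina3n was lower in CVST-7d than in CVST-2d cortex, but the groups overlapped. The log2 fold change of CVST-7d against CVST-2d was -0.99 ± 0.38 (SE; 95% interval from the SE, -1.74 to -0.25), which did not pass in edgeR's quasi-likelihood test (adjusted p = 0.154, unadjusted p = 0.0201). Of the 5 CVST-7d libraries 3 lay between 81.1 and 101 CPM, near the lowest CVST-2d library at 80.9 CPM, while CVST-7d 4 at 231 CPM exceeded 3 of the 5 CVST-2d libraries. The difference passed only when CVST-2d 5 was left out (-1.21, adjusted p = 0.0443) and gave adjusted p-values between 0.0588 and 0.274 under every other alternative tried. Of the 2 tested members 0 were called in this comparison by edgeR and 0 by DESeq2, and both had an unadjusted p under 0.05 in edgeR. Over all tested genes 2.8% were called in either direction.

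The other 6 members gave 249 of the cluster's 31862 reads over all libraries: 122 in CVST-7d, 94 in CVST-2d and 33 in sham libraries. Serpina3n made up between 95.9% and 99.7% of member reads in CVST-7d libraries, between 98.4% and 99.9% in CVST-2d libraries and between 95.0% and 100% in sham libraries. These are shares of reads and not levels per length. In the authors' values, Serpina3g had 0.888 ± 1.30 FPKM in CVST-7d, 0.228 ± 0.271 in CVST-2d and 0.253 ± 0.185 in sham cortex (SD, n = 5, 5 and 4). Serpina3i had 0.132 ± 0.161 FPKM in CVST-7d and 0.242 ± 0.209 in CVST-2d cortex and was listed at 0 in sham libraries. For these sparse genes FPKM did not follow the counts at a fixed length. Serpina3g had 0.23 FPKM from 2 reads in CVST-2d 1 and from 5 reads in sham 2. Serpina3i had 0.14 FPKM from 5 reads in CVST-2d 1 and 0.24 from 3 reads in CVST-7d 5. Group differences in these FPKM are thus not read.

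Serpina3g (ENSMUSG00000041481), the intracellular cathepsin inhibitor, had its group means in another order than Serpina3n. Its reads numbered 4, 2, 14, 9 and 73 in CVST-7d libraries, 2, 4, 1, 0 and 11 in CVST-2d libraries, and 0, 5, 13 and 13 in sham libraries. The 3 groups overlapped, and CVST-7d 5 alone held 71.6% of the CVST-7d reads. Mean Serpina3g was 1.11 ± 1.54 CPM in CVST-7d, 0.20 ± 0.253 CPM in CVST-2d and 0.413 ± 0.327 CPM in sham cortex, and 0.427 ± 0.293 CPM in CVST-7d without that library. The log2 fold change against sham was -1.05 ± 1.10 in CVST-2d and 1.41 ± 0.96 in CVST-7d, and the second was 0.046 without CVST-7d 5. CVST-2d 5 held 11 of the 18 CVST-2d reads; without it the CVST-2d mean was 0.0905 ± 0.0786 CPM (n = 4) and the log2 fold change at 2 d was -2.07. Between the times it was 2.46 ± 0.98 for CVST-7d against CVST-2d (edgeR, adjusted p = 0.171; unadjusted p = 0.0249). That value was 1.10 without CVST-7d 5 (adjusted p = 0.50) and 3.49 without CVST-2d 5 (adjusted p = 0.0719). Across the 10 CVST libraries the Pearson correlation of Serpina3g with Serpina3n in log2 CPM was -0.43, given as a description of sparse counts.

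CVST-7d 5 stood apart in other ways. Its 4 meningeal fibroblast markers summed to 996 CPM, against 68.1 to 130 CPM in the other CVST-7d libraries, 57.1 to 99.7 CPM in CVST-2d libraries and 26.4 to 64.2 CPM in sham libraries. Its 6 monocyte and macrophage markers summed to 58.4 CPM, against 6.14 to 27.8 CPM in the other CVST-7d libraries. They summed to 10.8 to 35.3 CPM in CVST-2d and 4.70 to 6.82 CPM in sham libraries. Its 6 T and NK cell markers, of which 2 passed the filter, stood less far apart. They summed to 22.0 CPM, against 6.39 to 15.7 CPM in the other CVST-7d libraries. In CVST-2d libraries this sum was 5.83 to 15.3 CPM and in sham libraries 3.90 to 17.9 CPM. Their part in the Serpina3g value was not tested. In Serpina3n this library was unremarkable at 95.1 CPM.

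Serpina3i (ENSMUSG00000079014) had reads in 7 of the 10 CVST libraries. It had 0, 0, 7, 2 and 3 reads in CVST-7d libraries, 5, 14, 3, 17 and 0 in CVST-2d libraries, and 0 in each of the 4 sham libraries. Against a floor of 3 reads over the sham group, which a count of 0 allows, its pooled level was 10.4-fold in CVST-2d and 3.41-fold in CVST-7d. These folds leave out the counting error of the CVST reads and are not lower bounds. The counting intervals of the pooled level were 0.307 to 0.590 CPM in CVST-2d, 0.0732 to 0.248 CPM in CVST-7d and 0 to 0.0512 CPM in sham libraries. CVST-7d 3 held 7 of the 12 CVST-7d reads, and without it the CVST-7d level was 1.79-fold the floor. The 2 CVST-2d libraries with most Serpina3i, numbers 4 and 2, were also the 2 with most Serpina3n. The 3 CVST libraries with no Serpina3i read, CVST-2d 5, CVST-7d 1 and CVST-7d 2, were the 3 with least Serpina3n. Per 1000 Serpina3n reads, Serpina3i had 1.23 in CVST-7d and 1.87 in CVST-2d cortex. At the CVST-2d ratio, the 1036 Serpina3n reads of the sham group correspond to 1.94 Serpina3i reads, which is under the floor of 3.

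The copies share stretches of sequence. In GENCODE M21 transcripts none of the 50-base words of Serpina3i occurs in Serpina3n, but 15.9% occur in some other Serpina3 gene. For Serpina3n, 6.9% of its 2015 words occur in another Serpina3 gene. The part of shared reads in these counts was not tested, and no source used here says how multi-mapping reads were counted. The Serpina3n entry of the count table is an assembled locus paired with the Serpina3n identifier.

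The remaining 4 members were at or near 0. Serpina3m had 0, 9, 0, 3 and 2 reads in CVST-2d libraries, 1 read in all CVST-7d libraries and 0 in sham libraries. Its pooled CVST-2d level was 3.72-fold the sham floor. Without CVST-2d 2, which held 9 of the 14 reads, that fold was 1.74. Serpina3f had 1, 1, 0, 1 and 8 reads in CVST-2d libraries, 3 in all CVST-7d libraries and 0 in sham libraries. Its pooled CVST-2d level was 2.92-fold the sham floor. That fold rests on CVST-2d 5, which held 8 of the 11 reads, and without it the 3 left are at the floor and give no fold. This library had the least Serpina3n of its group and the most Serpina3f and Serpina3g. Serpina3c had 1 read in CVST-7d, 6 in CVST-2d and 1 in sham libraries, and the transcribed pseudogene Serpina3h had 3, 6 and 1. For each of those 2, the pooled ratio of CVST-2d to sham was 4.79, with a counting interval of 0.581 to 220 that includes no difference. Intervals cover counting error only, and the folds against the floor leave out the counting error of the CVST-2d reads.

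**Figure D2:**
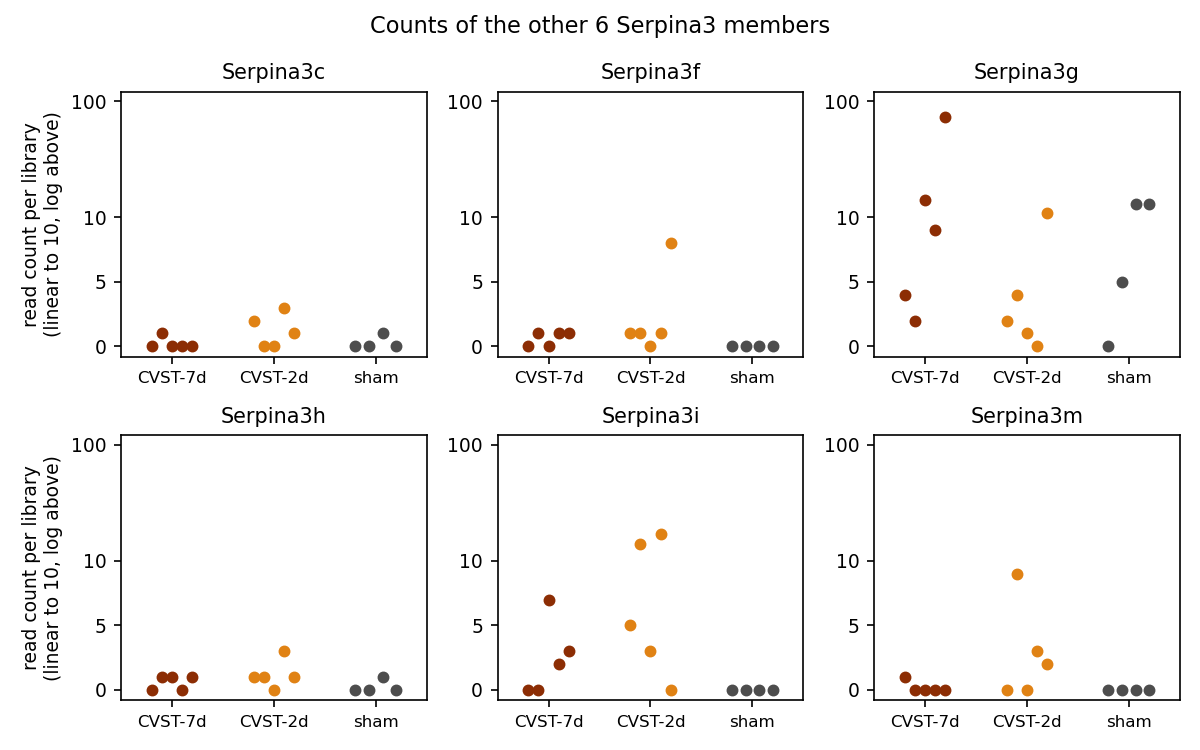
Read counts of the other 6 members in each CVST-7d, CVST-2d and sham library (1 point per library; the axis is linear to 10 and logarithmic above). Serpina3i, Serpina3m and Serpina3f have no read in any sham library, and 1 CVST-7d library holds 73 Serpina3g reads.

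The 4 other annotated Serpina3 genes stayed at the detection limit. Serpina3a, Serpina3j and Serpina3k, a liver serpin, had no read in any library, and Serpina3b had 1 read in each of CVST-7d 3 and CVST-2d 3. Liver transcripts were near absent as well: 6 hepatocyte markers summed to at most 0.886 CPM in CVST-7d, 1.21 CPM in CVST-2d and 1.06 CPM in sham libraries, and Ahsg was at 0 in all of them.

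Among all tested genes, the 5 whose log2 CPM followed Serpina3n most closely over the 14 libraries were Gfap, the intermediate filament of astrocytes (Pearson r = 0.97), the chemokine Ccl12 (0.96), the urea transporter Slc14a1 (0.96), the intermediate filament Vim (0.95) and the interferon-signalling factor Irf9 (0.95). The points fall into a CVST and a sham cluster, and the correlations are given as a description, without a p-value. Gfap had 611, 771, 984, 2232 and 716 CPM in CVST-7d libraries, 1590, 1669, 1122, 1689 and 544 CPM in CVST-2d libraries, and 153, 128, 181 and 167 CPM in sham libraries. As with Serpina3n, CVST-7d 4 was the highest CVST-7d library and CVST-2d 5 the lowest CVST-2d library. Gfap was chosen by its correlation over these libraries, so nothing is read from these shared extremes. The log2 fold change of Gfap in CVST-7d against CVST-2d was -0.32 ± 0.35 (edgeR, adjusted p = 0.643), beside -0.99 ± 0.38 for Serpina3n, and the difference between these 2 values was not tested. Chosen for their likeness, the other genes had log2 fold changes against sham that serve as a description only: 5.19 ± 0.87 at 2 d and 3.70 ± 0.87 at 7 d for Ccl12, 1.51 ± 0.25 and 1.12 ± 0.25 for Slc14a1, and 1.11 ± 0.17 and 0.92 ± 0.17 for Irf9.

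Within the 10 CVST libraries alone the leading genes were Apod, a secreted lipocalin (r = 0.95), Lgi4, a secreted glial protein (0.95), and Lsr, a receptor of cell junctions (0.95); Gfap reached 0.87. Apod had 197, 150, 227, 421 and 212 CPM in CVST-7d libraries, 309, 400, 322, 385 and 249 CPM in CVST-2d libraries, and 178, 108, 93.0 and 128 CPM in sham libraries. As in Serpina3n, CVST-7d 4 was the highest and CVST-7d 2 the lowest CVST-7d library, and CVST-2d 5 was the lowest CVST-2d library. Apod was chosen by its correlation with Serpina3n over these same libraries, so the shared extremes are a description. Summed markers of astrocytes in general lay in another order than Serpina3n: they were 2981 to 4924 CPM in CVST-7d, 2126 to 2769 CPM in CVST-2d and 2549 to 3423 CPM in sham libraries.

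**Figure D3:**
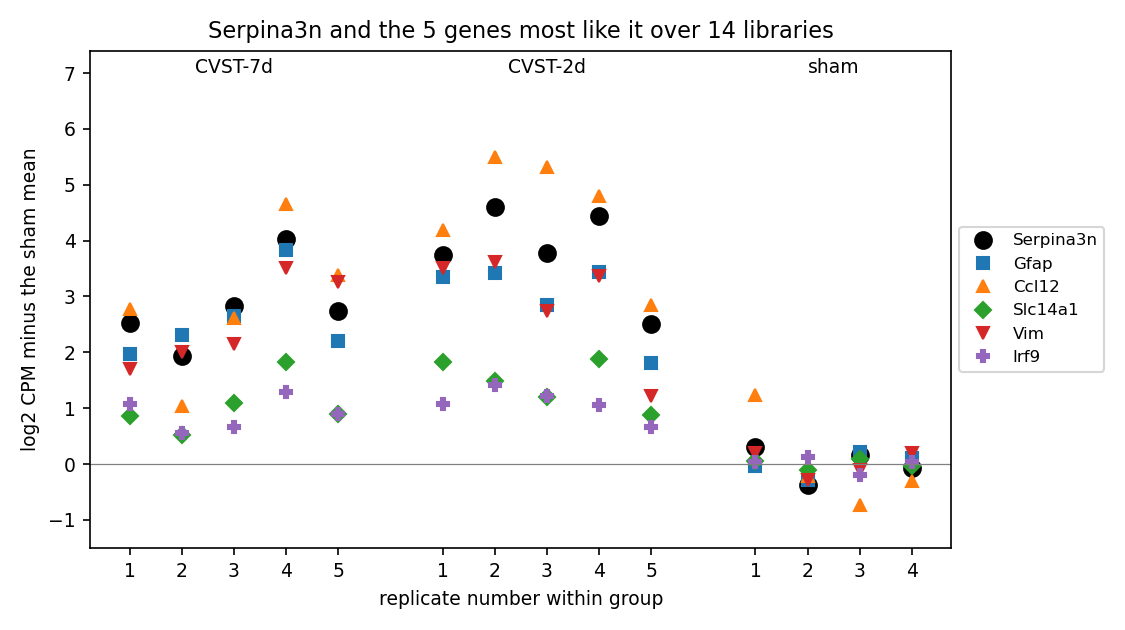
Log2 CPM of Serpina3n and the 5 genes most like it over 14 libraries, each minus its sham mean, for CVST-7d, CVST-2d and sham libraries by replicate number (no order among replicates). In all 6 genes the CVST-2d libraries lie above the sham libraries, and CVST-7d 4 is the highest CVST-7d library. The 5 genes were chosen by correlation with Serpina3n over these same libraries, so both features are a description. All CVST-2d libraries lie above all sham libraries for 5.65% of tested genes.

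The list of candidate target proteases of these inhibitors held 15 genes, of which 7 did not pass the filter on low counts, namely mast cell and neutrophil proteases (Cma1, Mcpt4, Ctsg, Elane) and the granzymes Gzma, Gzmb and Gzmk. The 8 tested were mostly lysosomal cathepsins, and every gene of the list called against sham was one of these. The tested serine proteases, Prtn3 and Gzmm, were low (0.567 and 0.606 CPM in sham) and were not called. Their log2 fold changes at 2 d and 7 d were 0.23 ± 0.34 and 0.23 ± 0.34 for Prtn3. For Gzmm they were -0.31 ± 0.38 and -0.60 ± 0.39. At 2 d 1 of 8 rose, Ctsc, the cathepsin that activates granzymes and neutrophil proteases (38.3 CPM in CVST-2d against 8.67 CPM in sham; log2 fold change 2.14 ± 0.47, edgeR adjusted p = 0.0263), beside 2.98% of all genes called higher. At an unadjusted p under 0.05 it was 6 of 8 at 2 d, as at 7 d. At 7 d 6 of 8 rose, beside 3.61% of all genes. They included the microglial cysteine cathepsin Ctss (250.8 CPM in CVST-7d against 49.3 CPM in sham; 2.35 ± 0.35, adjusted p = 0.00503), Ctsz (2.00 ± 0.43, adjusted p = 0.0201), Ctsc (1.97 ± 0.47, adjusted p = 0.0295) and Ctsh (1.96 ± 0.42, adjusted p = 0.0202). The median log2 fold change of the 8 was 0.96 at 2 d and 1.68 at 7 d, beside -0.01 for all tested genes in both comparisons.

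Ctss had its higher mean at the later time, unlike Serpina3n. It had 232, 90.7, 170, 366 and 396 CPM in CVST-7d libraries, 111, 149, 92.5, 95.5 and 73.9 CPM in CVST-2d libraries, and 50.4, 52.0, 44.0 and 50.8 CPM in sham libraries. It was higher in CVST-7d than in CVST-2d (1.26 ± 0.31, edgeR adjusted p = 0.0442), the only protease of the list called in that comparison, but the call was lost in 11 of 14 fits that left out 1 library (adjusted p = 0.0525 to 0.118). It remained only without CVST-2d 2, CVST-2d 5 or CVST-7d 2. The call of Ctss at 7 d against sham held in all 14 such fits. Those of Ctsz and Ctsc at 7 d were lost without any 1 sham library or CVST-7d 4, that of Ctsc also without CVST-7d 5, and that of Ctsh without sham 2, 3 or 4 or CVST-7d 4 (adjusted p = 0.0509 to 0.104). Ctsc at 2 d was lost without any 1 sham library or CVST-2d 2 (adjusted p = 0.0602 to 0.0916). The protease count at 7 d was accordingly 2 without sham 1 and 1 without sham 2, 3 or 4 or CVST-7d 4. At 2 d it was 3 without CVST-2d 5, CVST-7d 2 or CVST-7d 5. With only the 2 groups compared in each fit it was 4 at 7 d and 6 at 2 d, and the call of Ctss between the times was lost. Without both CVST libraries nearest sham it was 6 at both times. Of 6 microglia markers, 0 rose at 2 d, beside 2.98% of all genes, and 4 rose at 7 d, beside 3.61%. No counts without single libraries are given for these markers. Their sum was 344 to 954 CPM in CVST-7d, 249 to 556 CPM in CVST-2d and 256 to 293 CPM in sham libraries. The lowest of these sums, 249 CPM in CVST-2d 5, lay under every sham library. Their part in the protease values was not tested.

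The list of inducing signals held cytokines, receptors, kinases and transcription factors. It also held response or feedback genes of these pathways (Socs3, Nfkbia and Fkbp5), so a called gene of the list is not always an inducer. Of its 25 genes 23 were tested (Il6 and Osm were not). At 2 d 12 of the 23 rose, beside 2.98% of all genes. The named examples were 3 ligands of the gp130 receptor family, Il11 (4.81 CPM in CVST-2d against 0.180 CPM in sham; 4.69 ± 0.81, edgeR adjusted p = 0.0109), Lif (4.08 ± 0.88, adjusted p = 0.0252) and Clcf1 (3.52 ± 0.57, adjusted p = 0.00809). The fourth was the inflammatory cytokine Tnf, with 50 reads in CVST-2d and 1 in sham libraries (ratio 39.9, counting interval 6.84 to 1606). At 7 d 3 rose: Tnf, with 46 reads in CVST-7d libraries (ratio 39.2, 6.69 to 1581), the gp130 ligand Cntf (1.98 ± 0.43, adjusted p = 0.0218) and the oncostatin M receptor Osmr (1.33 ± 0.30, adjusted p = 0.0247). The median log2 fold change of the 23 was 1.01 at 2 d and 0.72 at 7 d. In sham libraries Tnf had at most 0.0588 CPM, Lif 0.215 to 0.700 CPM and Cntf 0.363 to 0.754 CPM. These genes passed the filter on low counts through CVST libraries. Their calls against sham are thus a description, and the counts of 12 and 3 include such genes.

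In CVST-7d against CVST-2d 6 of the 23 tested genes of this list fell, beside 2.8% of all genes called in either direction. The 4 of largest change had log2 fold changes of -4.81 ± 0.75 for Il11 (edgeR adjusted p = 0.00846), -3.16 ± 0.75 for Lif (adjusted p = 0.0389), -2.55 ± 0.49 for Clcf1 (adjusted p = 0.0169) and -2.44 ± 0.37 for Socs3, the feedback inhibitor of STAT3 signalling (adjusted p = 0.00698), and the other 2 were the transcription factors Cebpd and Stat3. Socs3 had 3.83, 2.78, 5.15, 6.08 and 9.74 CPM in CVST-7d libraries and 24.7, 38.1, 21.7, 53.3 and 12.7 CPM in CVST-2d libraries, with no overlap. The sham libraries had 3.82, 3.03, 3.60 and 3.07 CPM of Socs3, all within the CVST-7d range.

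The calls of Clcf1 and Socs3 between the times held in all 14 fits that left out 1 library. Il11 passed the filter in 10 such fits, and its call held in those. It had 3.23, 11.4, 2.88 and 6.21 CPM in CVST-2d 1 to 4 and at most 0.353 CPM in every other library. Il11 thus passed the filter only through the group where it was high, and its adjusted p-values are a description. With only the 2 groups fitted the call of Clcf1 was lost, as was that of Lif, and 1 gene of the list rather than 6 was called between the times. That of Lif was lost in 10 of 14, all but those without sham 4 or CVST-2d 2, 3 or 5 (adjusted p = 0.0506 to 0.0945). Against sham, Lif at 2 d and Cntf at 7 d were lost without any 1 sham library, Osmr at 7 d without sham 2, 3 or 4 or CVST-7d 4 or 5, and Tnf and Il11 at 2 d without sham 3 (adjusted p = 0.0509 to 0.0943). The count of the list at 2 d was 6 without sham 3, and at 7 d it was 1 without sham 2, 3 or 4 and 6 without CVST-7d 2. With only the 2 groups fitted 0 genes of the list were called at 7 d.

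The pan-reactive astrocyte list, which in the literature usually includes Serpina3n itself, was tested here without it. Of its 12 genes 10 rose at 2 d, beside 2.98% of all genes, with a median log2 fold change of 2.99. At 7 d 5 rose, beside 3.61% of all genes, with a median of 1.74, and the median of all tested genes was -0.01 in both comparisons. At 2 d the named examples were the hyaluronan receptor Cd44 (61.8 CPM in CVST-2d against 4.38 CPM in sham; 3.80 ± 0.66, edgeR adjusted p = 0.0113), the chemokine Cxcl10 (3.52 ± 0.77, adjusted p = 0.0263), Vim (3.09 ± 0.48, adjusted p = 0.00712) and Gfap (3.07 ± 0.41, adjusted p = 0.00371). At 7 d they were Cxcl10 (3.91 ± 0.77, adjusted p = 0.0152), Gfap (2.76 ± 0.40, adjusted p = 0.00454), Vim (2.70 ± 0.47, adjusted p = 0.00945) and the asparaginase Aspg (2.10 ± 0.29, adjusted p = 0.00396). Between the times 1 of 12 fell, the small heat shock protein Hspb1 (-2.47 ± 0.40, adjusted p = 0.00962), and the median of the list was -0.86, beside -0.99 for Serpina3n. Osmr stands in this list and in that of inducing signals. Cxcl10 had 0 to 0.968 CPM in sham libraries and passed the filter on low counts through CVST libraries. Its adjusted p-values against sham are thus a description, and the counts of 10 and 5 include it. The calls of Gfap, Vim, Aspg and Hspb1 held in all 14 fits that left out 1 library; Cd44 was lost without sham 2, and Cxcl10 without sham 1, 3 or 4 or CVST-2d 2 at 2 d and without sham 3 or 4 at 7 d (adjusted p = 0.0520 to 0.0936). The count at 2 d was 5 without sham 2 or 3 and 6 without sham 4, at 7 d it was 3 without sham 3 or 4, and between the times it was 3 without CVST-2d 5.

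Of 32 listed serpins outside the cluster, 14 passed the filter on low counts. Serpinf1 (PEDF), a secreted serpin without protease inhibition, rose at 7 d (23.1 CPM in CVST-7d against 6.73 CPM in sham; 1.78 ± 0.30, edgeR adjusted p = 0.00918). Serping1, the inhibitor of complement C1, also rose at 7 d (1.41 ± 0.28, adjusted p = 0.0155), so that 2 of 14 rose beside 3.61% of all genes. Both were highest in CVST-7d 5, at 38.1 CPM for Serpinf1 and 26.2 CPM for Serping1, the library with 996 CPM of meningeal fibroblast markers. Those markers summed to 68.1 to 996 CPM in CVST-7d and 26.4 to 64.2 CPM in sham libraries. Both calls held without CVST-7d 5. At 2 d edgeR called 0 of the 14, with 4 at an unadjusted p under 0.05, and DESeq2 called 4. Between the times edgeR called 0, with 3 at an unadjusted p under 0.05, and DESeq2 called 3. The median log2 fold change of the 14 was 0.16 at 2 d and 0.50 at 7 d. The call of Serpinf1 held in all 14 fits that left out 1 library, whereas Serping1 was lost without sham 3 (adjusted p = 0.0689). The list's count at 2 d was 3 without CVST-2d 5 or CVST-7d 5 and 1 without CVST-7d 2, and between the times it was 1 without CVST-2d 2, CVST-2d 5 or CVST-7d 2.

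**Figure D4:**
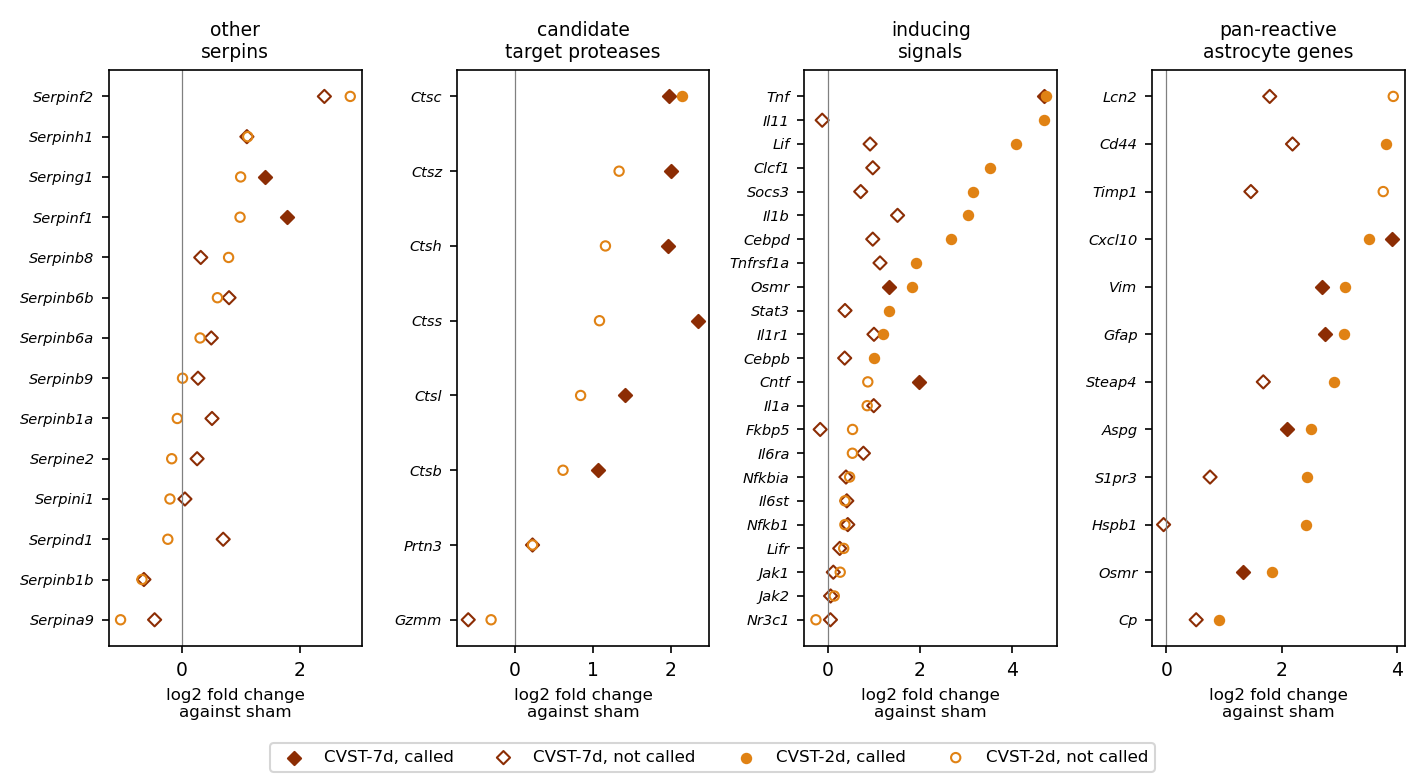
Log2 fold change against sham at 7 d (diamonds) and 2 d (circles) for the tested genes of the 4 lists; filled symbols passed at adjusted p under 0.05 in edgeR. Filled diamonds outnumber filled circles among the proteases (6 and 1; 4 and 6 with only the 2 groups fitted), and filled circles outnumber diamonds among the inducing signals (12 and 3).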

How the data were processed

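Complementary DNA libraries of total RNA from 14 cortex samples were sequenced by the authors. The deposited count table gives raw read counts per gene, and a second deposited table gives FPKM values, which the authors made per gene length and library size. Per the submitters' processing notes, reads were trimmed with fastp and aligned to mm39 with HISAT2, and DESeq2 1.16.1 was used; the counting program and annotation are not named in what was at hand. From the counts, 535 assembled entries with no Ensembl identifier were left out (0.203% to 0.278% of counts per library). Genes passing filterByExpr were fitted with edgeR 4.0.16 (TMM, quasi-likelihood test, all 14 libraries), with Benjamini-Hochberg adjustment over 16918 genes and calls at 0.05. Log2 CPM used a prior count of 2. Promoters were aligned with Biopython 1.88. On simulated counts the fit was tested before use. DESeq2 1.42.0, other scaling, filters, the replicate number as a block and fits without single libraries were alternatives. Replicates of a group differed beyond sampling noise (lowest chi-square per degree of freedom 7.76). Same-numbered libraries of different groups did not deviate together (r = -0.438 to 0.28), so numbers were not taken as pairs. The members and gene lists were chosen with earlier results of these data known; 1 gene of the lists is not reported here. Named genes were, for each list and comparison, up to 4 called genes of largest absolute log2 fold change, and the 5 and 3 genes of highest correlation with Serpina3n over all 14 and over the 10 CVST libraries.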

Additional observations from a re-analysis of the deposited data

Results flagged for a closer look

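Of 12 combinations of a member and a group with over 3 reads, 1 held a library far from the others: Serpina3f in CVST-2d 5, at 0.463 CPM (8 reads), where the other CVST-2d libraries held at most 1 read. The limit used would mark about 1 in 20 combinations of normally distributed values. Its rate for counts this sparse was not tested. Serpina3g in CVST-7d 5, with 73 reads, was not marked by it. CVST-2d 5 also had the least Serpina3n of its group.

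The 6 list genes given here were named because edgeR called them between the times (CVST-7d against CVST-2d). Their passing is thus not a separate result. They are the called genes of largest change in each list. Cebpd (log2 fold change -1.70) and Stat3 (-0.95), of the inducing signals, were also called. Ctss was higher at 7 d, with a log2 fold change of 1.26. The log2 fold change was -4.81 for Il11, -3.16 for Lif, -2.55 for Clcf1, -2.47 for Hspb1 and -2.44 for Socs3. In the same comparison Serpina3n (-0.99) did not pass. Leaving out 1 library at a time kept the calls of Clcf1, Hspb1 and Socs3 in 14 of 14 fits. That of Il11, which passed the filter only through CVST-2d libraries, was kept in the 10 fits in which it was tested. With only the 2 groups fitted Clcf1 was lost.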

How the results depend on the processing

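Over 20 alternatives the log2 fold change of Serpina3n against sham, the contrast it was chosen from, was 3.76 to 4.19 at 2 d and 2.53 to 3.16 at 7 d. For CVST-7d against CVST-2d its value was -1.44 to -0.79 over the fits without 1 library, and it passed without CVST-2d replicate 5 (-1.21), when 1 member rather than 0 was called. The member count of DESeq2 at 2 d was 2; nothing is read from it, since it adds Serpina3i, which had 0 reads in every sham library. Serpina3g at 7 d against sham was 0.046 without CVST-7d replicate 5. Of 549 refits of the named list calls, 465 passed and 84 did not, and 0 reversed.

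The number of genes called depended strongly on single libraries. It was 669 at 2 d (76 to 1967 without 1 library), 752 at 7 d (119 to 1035) and 473 between the times (173 to 1309). DESeq2 called 1500, 1387 and 1278 genes. Without both CVST libraries nearest sham, 2146, 1324 and 913 were called. With the replicate block, which pairs libraries that share only a number, 315, 81 and 91 were called. With only the 2 groups fitted, 81 were called between the times, and Ctss, Lif and Clcf1 between the times and Cntf and Osmr at 7 d were not among the calls.

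List counts without 1 library ranged as follows at 2 d: other serpins 0 to 3, proteases 0 to 3, inducing signals 6 to 14 and pan-reactive genes 5 to 12. At 7 d they were 1 to 2, 1 to 6, 1 to 6 and 3 to 6, and between the times 0 to 1, 0 to 1, 4 to 7 and 1 to 3. DESeq2 gave 4 other serpins and 4 proteases at 2 d, 7 inducing signals at 7 d, and 3 other serpins and 2 pan-reactive genes between the times. With no filter on low counts 2 other serpins were called at 2 d. With the replicate block 0 proteases were called at 2 d; at 7 d it was 0 other serpins, 1 protease, 0 inducing signals and 2 pan-reactive genes; between the times 0, 0 and 3 of the first 3 lists. Without both CVST libraries nearest sham, 3 other serpins and 6 proteases were called at 2 d, 7 inducing signals at 7 d, and 1 other serpin and 2 pan-reactive genes between the times. With only the 2 groups fitted it was 2 and 6 at 2 d, 0 inducing signals at 7 d, and 0, 0 and 1 of the first 3 lists between the times. The cause of these shifts was not tested. Depth limits the 5 members other than Serpina3n and Serpina3g, which had at most 17 reads in any library.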
